A study of Homo sapiens with 10 samples.

Results

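A set of 10 genes of the Notch pathway, 3 receptors (NOTCH1, NOTCH2, NOTCH3), 4 ligands (JAG1, JAG2, DLL1, DLL3) and 3 target genes (HES1, HEY1, NRARP), was described in RBM4 knockout and wild type HAP1 cells. They were taken by symbol from the 58051 gene rows of the paired-end RNA sequencing table, where all 10 had a row and all 10 passed the filter on low counts. HAP1 is a near-haploid adherent human cell line derived from the leukaemia line KBM-7, and RBM4 is an RNA-binding protein that acts in splicing and translation. The 8 paired-end libraries came from clone 1 of the RBM4 knockout (n = 3), clone 2 of the RBM4 knockout (n = 2) and wild type cells (n = 3). A further pair of single-end libraries came from an RBM4 knockout clone (n = 1), whose clone number is not stated, and from wild type cells (n = 1). Each knockout clone is 1 clonal line, both are compared with the same wild type libraries, and all cells were grown in the same medium with no treatment. Nothing in the labels says that libraries of a group came from separate cultures, so the spread between them may be technical.

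Notch signalling passes between touching cells. A Jagged or Delta-like ligand on one cell pulls on a Notch receptor on its neighbour, the receptor is cut first by an ADAM protease and then by gamma-secretase, and the freed intracellular part enters the nucleus. There it joins the DNA-binding protein RBPJ and a Mastermind coactivator and turns on genes such as HES1, HEY1 and NRARP. HES1 and HEY1 are repressors of transcription, and NRARP is a small ankyrin repeat protein that feeds back to limit Notch activity. In blood, the lineage from which KBM-7 came, NOTCH1 directs T cell development.

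The 10 genes lie on 8 chromosomes, with pairs on chromosomes 9 (NOTCH1 and NRARP) and 19 (NOTCH3 and DLL3). The ones that results below turn on are, in GENCODE 29 on GRCh38, JAG2 on the minus strand at chr14:105140981-105168824, NRARP on the minus strand at chr9:137300482-137302251, NOTCH3 on the minus strand at chr19:15159038-15200981, NOTCH1 on the minus strand at chr9:136494433-136545786 and HES1 on the plus strand at chr3:194136145-194138732. NRARP has a single exon in that annotation. The 250 bases before the transcript start are printed 5′ to 3′ for HES1 and NRARP, because these are the target genes for which knockout libraries lay below every wild type library, HES1 in clone 2 and NRARP in both clones. Capitals mark TGGGAA, the core letters that RBPJ binds, searched as TGGGAA and as its reverse complement TTCCCA, which do not overlap each other here. The sequences are from RefSeq on GRCh38.p14.
HES1 promoter, plus strand, chr3:194135898-194136147: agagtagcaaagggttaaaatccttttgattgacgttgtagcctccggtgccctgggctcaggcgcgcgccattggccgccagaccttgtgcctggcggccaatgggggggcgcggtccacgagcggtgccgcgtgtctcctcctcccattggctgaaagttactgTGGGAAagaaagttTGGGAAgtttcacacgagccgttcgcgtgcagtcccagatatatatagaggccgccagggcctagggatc
NRARP promoter, minus strand, chr9:137302272-137302521: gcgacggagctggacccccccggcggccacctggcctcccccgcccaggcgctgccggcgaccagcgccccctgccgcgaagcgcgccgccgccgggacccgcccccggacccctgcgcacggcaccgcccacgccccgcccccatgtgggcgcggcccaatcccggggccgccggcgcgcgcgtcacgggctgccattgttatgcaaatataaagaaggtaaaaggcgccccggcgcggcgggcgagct
The HES1 stretch holds 2 copies in the same direction, which begin 84 and 70 bases before the start, and the NRARP stretch holds none within these 250 bases. Of 35116 promoters of this length, 20.8% hold at least 1 copy on either strand and 2.90% hold at least 2. Of the 7 member genes with a promoter in the RefSeq table, only HES1 holds the letters. A match or its absence describes these letters in this window and not the use of a site.

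The libraries held 33192095 to 55617525 counts in the paired-end set, and 41265510 (knockout) and 44140706 (wild type) in the single-end pair. RBM4 itself averaged 23.2 ± 1.11 CPM (counts scaled to library size, with TMM factors) in clone 1 (SD, n = 3), 25.5 ± 0.369 CPM in clone 2 (SD, n = 2) and 79.4 ± 0.651 CPM in wild type cells (SD, n = 3), so the RNA of the targeted gene was reduced and not lost in every knockout library. Of blood lineage markers, 1 of 9 (KIT) passed the filter, GATA1, MPO and HBG1 were at 0 in all 8 paired-end libraries, and the list summed to 7.60 to 8.52 CPM in clone 1, 5.94 to 6.08 CPM in clone 2 and 12.4 to 13.9 CPM in wild type. None of 5 endothelial markers passed (CDH5 was at 0), with sums of 0.0906 to 0.370, 0.173 to 0.276 and 0.00 to 0.170 CPM in clone 1, clone 2 and wild type. Of epithelial markers, 4 of 5 passed, with CDH1 at 0 or 1 counts, and the sum was 56.7 to 64.7 CPM in clone 1, 68.9 to 75.9 CPM in clone 2 and 41.2 to 47.3 CPM in wild type. That epithelial sum is mostly KRT18 (35.8 to 58.6 CPM over the libraries). In the clone mean KRT8, KRT18 and CLDN7 were called higher. EPCAM was not, with log2 fold changes of 0.55 in clone 1 and -0.72 in clone 2. It was called lower in clone 2 against clone 1 (-1.27, edgeR adjusted p = 0.00942). Of mesenchymal markers, 2 of 5 passed (COL1A2 was at 0), and the sum was 384 to 446 CPM in clone 1, 440 to 445 CPM in clone 2 and 467 to 502 CPM in wild type. That sum is mostly VIM (361 to 489 CPM over the libraries), which was called lower in the clone mean (log2 fold change -0.20, edgeR adjusted p = 0.0279), while COL1A1 (13.2 to 26.5 CPM) was called higher (0.76, adjusted p = 1.28e-05). What part these marker differences have in the Notch values was not tested, and in bulk RNA fewer cells of a kind and less RNA per cell cannot be told apart.

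Averaged over the RBM4 knockout clones and without GC correction, RNA levels of the Notch receptors, ligands and targets were close to those of wild type cells. Fold changes of the clone means lay between -0.19 and 0.06 on the log2 scale. By clone they ran from -0.24 (JAG2) to 0.08 in clone 1 and from -0.38 (HES1) to 0.13 (DLL1) in clone 2. With the GC correction described below, the clone means ran from -0.33 (JAG2) to 0.01 (JAG1). In edgeR's quasi-likelihood test without that correction, adjusted over all features, JAG2 was the only 1 of the 10 that passed in the clone mean against wild type. It fell, and 18.0% of all features were called in that comparison at an adjusted p below 0.05 (9.87% higher and 8.09% lower). JAG2 was also the only 1 of 10 called in clone 1 against wild type, where 16.0% of features were called. None was called in clone 2 against wild type (10.8% of features called) or in clone 2 against clone 1 (2.09% called). In each of these last comparisons 2 of the 10 genes had an unadjusted p below 0.05, and DESeq2 called 0 in each. The median log2 fold change over the 10 genes was -0.03 in clone 1, -0.05 in clone 2 and -0.05 in the clone mean against wild type, beside 0.01 over all features in each case, and it was -0.01 in clone 2 against clone 1, beside -0.01 over all features.

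**Figure D1:**
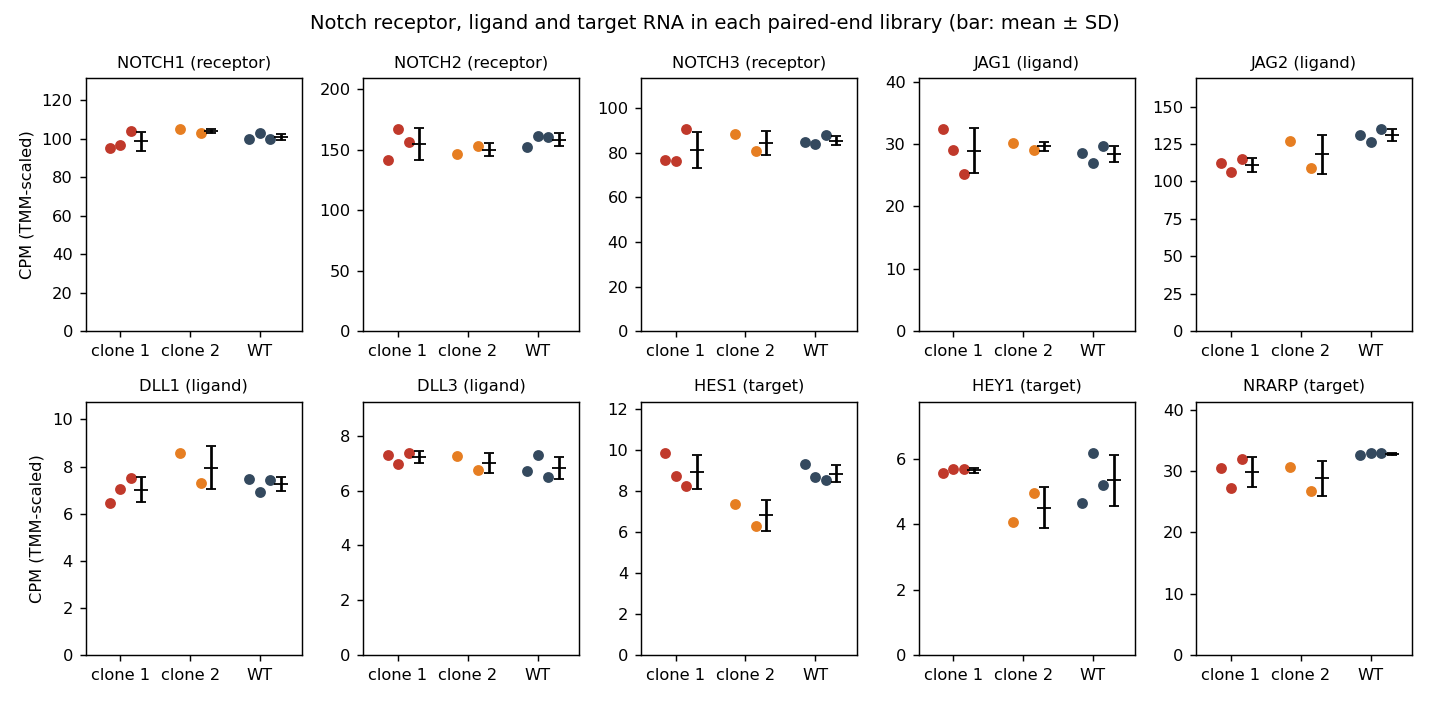
Level of each Notch gene in every paired-end library, in TMM-scaled CPM (each vertical axis starts at 0), for clone 1 (n = 3), clone 2 (n = 2) and wild type (WT, n = 3), where points are libraries and the bar beside them is the mean ± SD. JAG2 in clone 1 lies at 106 to 115 CPM, below its wild type range of 126 to 135 CPM, and HES1 in clone 2 lies at 6.29 to 7.35 CPM, below its wild type range of 8.53 to 9.33 CPM.

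The receptors are single-pass proteins that both receive the signal and carry it to the nucleus. NOTCH1, the receptor of T cell fate, had 94.9, 96.8 and 104 CPM in clone 1, 105 and 103 CPM in clone 2, against 100, 103 and 99.8 CPM in wild type. Clone 1 overlapped wild type, and both clone 2 libraries lay just above the highest wild type library. Its log2 fold change in the mean of the clones was 0.01 (95% interval -0.09 to 0.11, edgeR adjusted p = 0.944). NOTCH2, which acts in B cell and bile duct development, had 141, 167 and 156 CPM in clone 1, 146 and 153 CPM in clone 2, against 152, 161 and 160 CPM in wild type. Its groups overlapped, with a log2 fold change of -0.05 (95% interval -0.17 to 0.07, edgeR adjusted p = 0.580). NOTCH3, the receptor of vascular smooth muscle, had 76.9, 76.2 and 90.6 CPM in clone 1, 88.3 and 80.7 CPM in clone 2, against 84.6, 83.7 and 87.9 CPM in wild type. The third clone 1 library lay above all wild type libraries and the other two below them, and the log2 fold change was -0.04 (95% interval -0.18 to 0.09, edgeR adjusted p = 0.678). These intervals, without GC correction, leave room for changes of the clone mean of -11.6% to 7.74% over the 3 receptors. With the GC correction described below, the intervals were -14.5% to -1.97% for NOTCH1, -12.5% to 2.19% for NOTCH2 and -17.2% to -5.94% for NOTCH3. The near-copy NOTCH2NLA had 50 to 84 counts a library against 4656 to 9242 for NOTCH2, and how reads shared between them were assigned is not stated.

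The ligands are held on the surface of the sending cell. JAG2, a Jagged ligand, had 112, 106 and 115 CPM in clone 1, 127 and 109 CPM in clone 2, against 131, 126 and 135 CPM in wild type. All 3 clone 1 libraries and 1 of 2 clone 2 libraries lay below every wild type library, and the other clone 2 library lay just inside the wild type range. Its means were 111 ± 4.69 CPM in clone 1 (SD, n = 3), 118 ± 13.1 CPM in clone 2 (SD, n = 2) and 131 ± 4.07 CPM in wild type (SD, n = 3). In the mean of the clones JAG2 fell by 0.19 on the log2 scale (SE 0.0564, 95% interval -0.32 to -0.07, edgeR adjusted p = 0.0300), a change of -12.5%. Within clone 1 it fell by 0.24 (SE 0.0629, edgeR adjusted p = 0.0212), and within clone 2 the log2 fold change was -0.15 (SE 0.0705, edgeR adjusted p = 0.218). The clones were not shown to differ from each other: the log2 fold change of clone 2 against clone 1 was 0.09 (95% interval -0.06 to 0.24, edgeR adjusted p = 0.805).

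The JAG2 call was a narrow one. It was lost without wild type replicate 1 (edgeR adjusted p = 0.0982), replicate 2 (0.0520) or replicate 3 (0.112). In those fits the share of all features called also fell, from 18.0% to 8.97%, 10.7% and 11.8%. The JAG2 call was lost without clone 1 replicate 2 as well (edgeR adjusted p = 0.0536, with 18.2% of features called). The fit without clone 2 replicate 2 leaves 1 clone 2 library, so only its size is given, a log2 fold change of -0.15, and no call is read from it. Over these fits the JAG2 log2 fold changes were -0.23 to -0.15, beside -0.19 with all libraries. The clone 1 call was lost without wild type replicate 1 (log2 fold change -0.24, edgeR adjusted p = 0.0680), wild type replicate 3 (-0.22, 0.0747) or clone 1 replicate 2 (-0.20, 0.0698), and with the library number term described next (-0.17, 0.108). In that order, 7.79%, 11.2%, 15.2% and 18.9% of all features were called in clone 1, beside 16.0% in the main fit. The table's column names carry a library number, 1 to 5 for all wild type libraries and the first library of each clone, and 11 to 13 for the other knockout libraries. What that number marks is not stated. Within numbers 1 to 5, with 1 library of each clone, the JAG2 log2 fold change of the clone mean was -0.14. By clone it was -0.23 in clone 1 and -0.05 in clone 2, so most of that value came from clone 1. With the number range as a term in the fit, the JAG2 log2 fold change of the clone mean was -0.13 (edgeR adjusted p = 0.144). Numbers 11 to 13 hold no wild type library. JAG2 also shares 469 exon bases on the same strand with the transcript AL512356.1, which had 222 to 422 counts a library against 3695 to 5875 for JAG2, so a share of reads from that stretch could be counted for either gene.

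JAG1, the other Jagged ligand, had 32.4, 29.1 and 25.2 CPM in clone 1, 30.1 and 29.0 CPM in clone 2, against 28.6, 27.0 and 29.6 CPM in wild type. The groups overlapped, with clone 1 spread on both sides of wild type, and the log2 fold change of the clone mean was 0.04 (95% interval -0.12 to 0.20, edgeR adjusted p = 0.746). An antisense transcript, AL050403.2, shares 79 exon bases with JAG1 and had 0 or 1 counts a library. DLL1, a Delta-like ligand that activates Notch receptors, had 6.47, 7.04 and 7.53 CPM in clone 1, 8.59 and 7.31 CPM in clone 2, against 7.46, 6.93 and 7.42 CPM in wild type. Its log2 fold change was 0.04 (95% interval -0.17 to 0.24, edgeR adjusted p = 0.831), with overlap in both clones. DLL3, a divergent Delta-like protein that stays mostly inside the cell and dampens Notch signalling, had 7.28, 6.98 and 7.38 CPM in clone 1, 7.25 and 6.74 CPM in clone 2, against 6.72, 7.28 and 6.50 CPM in wild type. Its log2 fold change was 0.06 (95% interval -0.13 to 0.25, edgeR adjusted p = 0.708), again with overlap. DLL1 and DLL3 had 214 to 390 counts a library, so their intervals are wider than those of the receptors.

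The target genes report the nuclear end of the pathway. NRARP had 30.5, 27.2 and 32.0 CPM in clone 1, 30.7 and 26.8 CPM in clone 2, against 32.6, 32.9 and 33.0 CPM in wild type. It was the only 1 of the 10 genes for which all 5 knockout libraries lay below all 3 wild type libraries, though the nearest values were 32.0 CPM in clone 1 and 32.6 CPM in wild type. The share of all features separated in this way was not counted, so the separation is only described. The NRARP log2 fold change of the clone mean was -0.16 (SE 0.0653, 95% interval -0.31 to -0.02, edgeR adjusted p = 0.102), which did not pass the threshold. By clone it was -0.14 in clone 1 (edgeR adjusted p = 0.228) and -0.19 in clone 2 (edgeR adjusted p = 0.166). Within library numbers 1 to 5 the clone mean was -0.10 (edgeR adjusted p = 0.211), and with the number range as a term it was -0.10 (adjusted p = 0.395), with -0.06 in clone 1 (adjusted p = 0.674).

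HES1, whose 2 copies of TGGGAA are marked above, had 9.88, 8.74 and 8.24 CPM in clone 1, 7.35 and 6.29 CPM in clone 2, against 9.33, 8.70 and 8.53 CPM in wild type. Clone 1 straddled wild type, and both clone 2 libraries lay below every other library. The log2 fold change was 0.01 in clone 1 (95% interval -0.21 to 0.23, edgeR adjusted p = 0.952) and -0.38 in clone 2 (95% interval -0.63 to -0.13, edgeR adjusted p = 0.0567), and clone 2 against clone 1 gave -0.39 (95% interval -0.64 to -0.14, edgeR adjusted p = 0.163). None of these passed over all features. Within library numbers 1 to 5 the clone 2 value was -0.28 (edgeR adjusted p = 0.172). HEY1 had 5.56, 5.70 and 5.68 CPM in clone 1, 4.06 and 4.95 CPM in clone 2, against 4.65, 6.19 and 5.19 CPM in wild type. Wild type spanned all of clone 1, and 1 of 2 clone 2 libraries lay below wild type. The HEY1 log2 fold change was 0.08 in clone 1 (95% interval -0.19 to 0.36, edgeR adjusted p = 0.694) and -0.24 in clone 2 (95% interval -0.55 to 0.07, edgeR adjusted p = 0.352), on 164 to 316 counts a library.

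Correction for GC content moved part of the list to lower values. The GC content of a transcript is the share of G and C in its longest isoform, and the rank correlation between it and a gene's log2 level relative to the mean of all libraries was 0.28, -0.017 and 0.39 in clone 1, 0.35 and -0.05 in clone 2, and -0.41, -0.34 and -0.25 in wild type. Across the 6 Notch genes of 58.3 to 67.3% GC (NOTCH1, NOTCH3, JAG2, DLL1, DLL3 and NRARP) the correction changed the log2 fold change of the clone mean by -0.14 to -0.13. Across the 4 of 47.3 to 49.9% GC (NOTCH2, JAG1, HES1 and HEY1) it changed it by -0.04 to -0.01. The GC trend separated wild type from every knockout library, so it and the knockout cannot be told apart.

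**Figure D2:**
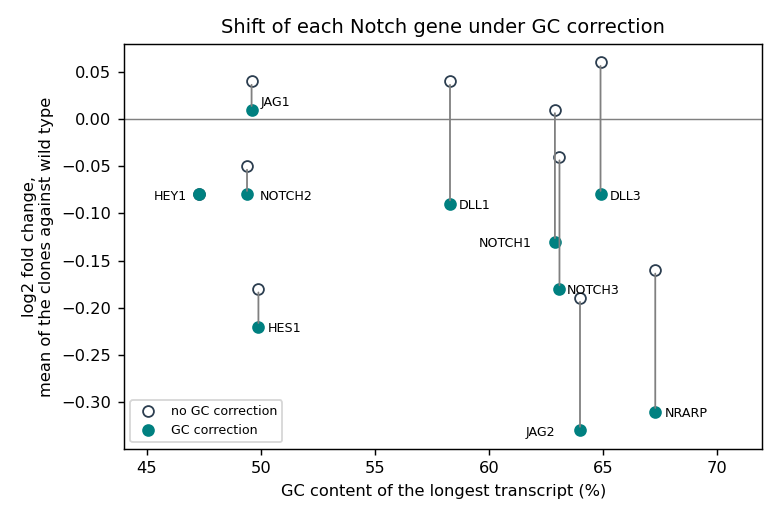
Log2 fold change of each Notch gene in the clone mean against wild type (vertical axis) by GC content of its longest transcript (horizontal axis, %), without GC correction (open points) and with it (filled points). The 6 genes of 58.3% GC or more move down by 0.13 to 0.14 and the 4 genes of 49.9% or less by 0.01 to 0.04.

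With GC correction edgeR called 3 of the 10 genes in the mean of the clones, all lower, against 17.5% of features. JAG2 fell by 0.33 on the log2 scale (edgeR adjusted p = 3.34e-05), NRARP fell by 0.31 (adjusted p = 0.000198) and NOTCH3 fell by 0.18 (adjusted p = 0.00880). In clone 1 it called 4 (15.3% of features), where JAG2 fell by 0.39 (edgeR adjusted p = 2.62e-05), NRARP by 0.29 (0.000912), NOTCH3 by 0.23 (0.00446) and NOTCH1 by 0.19 (0.0231). In clone 2 it called 3 (11.9% of features), where HES1 fell by 0.41 (edgeR adjusted p = 0.0201), NRARP by 0.32 (0.00126) and JAG2 by 0.27 (0.00210). The median over the 10 genes was then -0.13 in clone 1, -0.12 in clone 2 and -0.11 in the mean of the clones. Over all features these medians were -0.01, 0.00 and -0.01. JAG2 was the 1 gene called lower in the mean of the clones both with and without the correction, while the calls of NRARP, NOTCH3, NOTCH1 and HES1 were made only with it or with other settings given below.

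**Figure D3:**
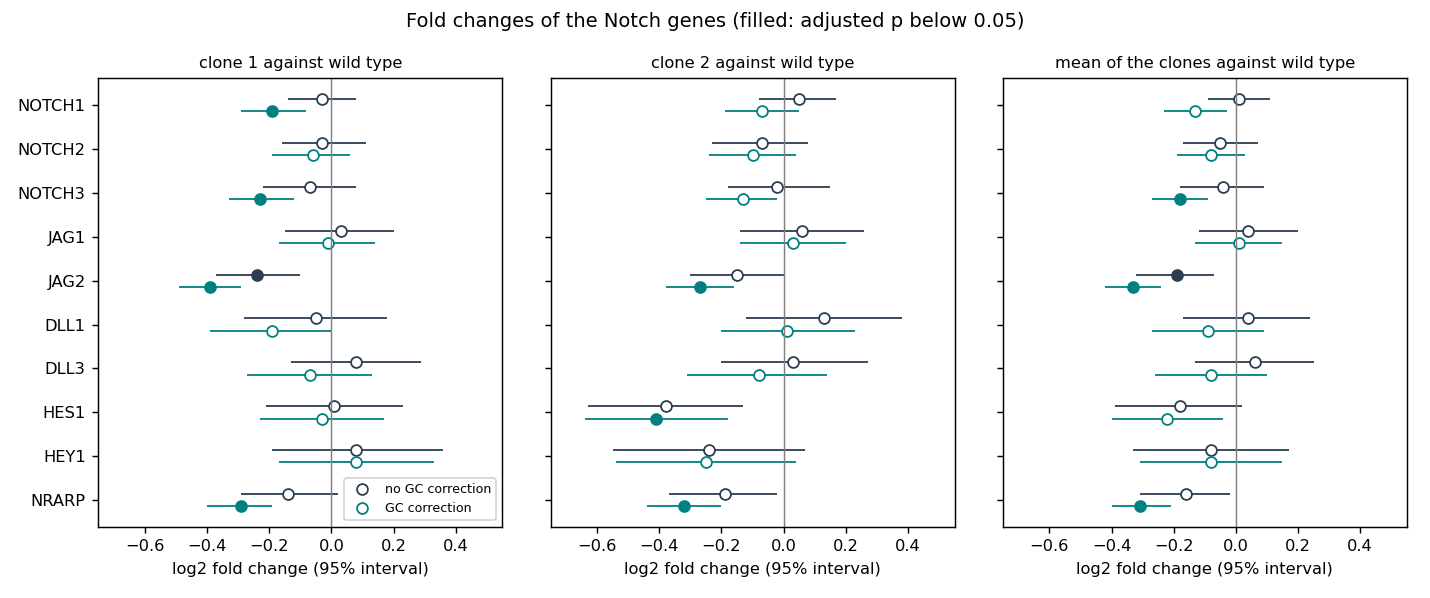
Log2 fold change (horizontal axis) with its 95% interval for each Notch gene in clone 1, in clone 2 and in the mean of the clones, each against wild type, without GC correction (dark) and with it (teal), where filled points have an edgeR adjusted p below 0.05. JAG2 is filled without correction in clone 1 (-0.24) and in the mean of the clones (-0.19), and correction moves NRARP in the mean of the clones to -0.31.

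Per kilobase of merged exon length, JAG2 and NRARP were the most abundant of the 10 transcripts and HEY1 the least. In clone 1, JAG2 had 17.4 ± 0.734 and NRARP 16.9 ± 1.38 CPM per kilobase (SD, n = 3), in clone 2 JAG2 had 18.4 ± 2.05 and NRARP 16.2 ± 1.60 (SD, n = 2), and in wild type JAG2 had 20.4 ± 0.637 and NRARP 18.5 ± 0.0950 (SD, n = 3). Their ranges overlapped in both clones and not in wild type. By merged exon length the receptors formed a close group. NOTCH1, NOTCH2 and NOTCH3 had 9.50, 9.20 and 8.65 CPM per kilobase in clone 1. They had 10.0, 8.91 and 8.99 in clone 2, and 9.72, 9.39 and 9.09 in wild type. NOTCH2 and NOTCH3 overlapped in every group, and in clone 2 their order was turned round. The remaining order was HES1 (4.34, 3.31 and 4.30 CPM per kilobase in clone 1, clone 2 and wild type), JAG1 (3.11, 3.18 and 3.05), DLL3 (2.76, 2.67 and 2.61), DLL1 (2.17, 2.46 and 2.25) and HEY1 (1.75, 1.39 and 1.65). Of these neighbours JAG1 and DLL3 overlapped in clone 1, HES1 and JAG1 as well as DLL3 and DLL1 overlapped in clone 2, and none overlapped in wild type.

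**Figure D4:**
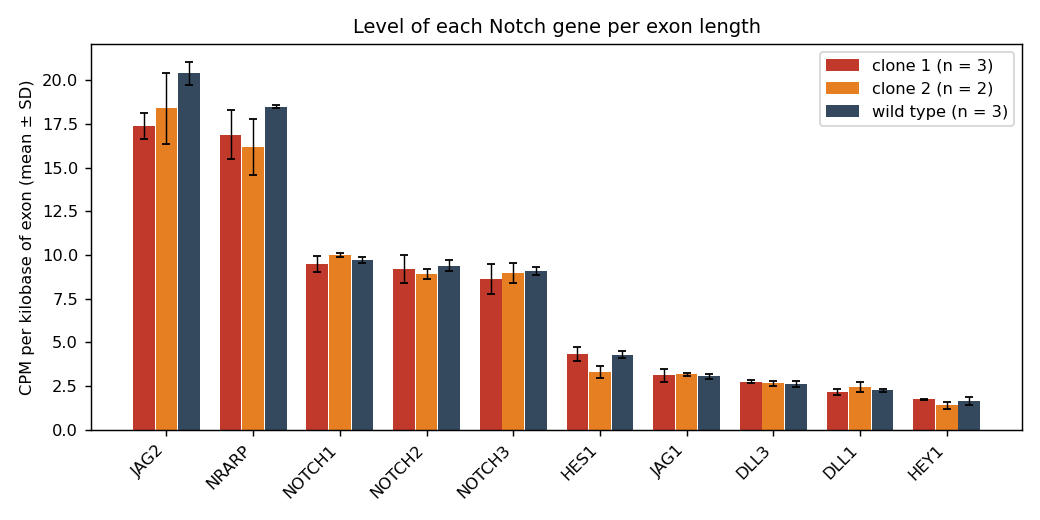
Level of each Notch gene in CPM per kilobase of merged exon length (vertical axis from 0; bars are means, error bars SD) in clone 1 (n = 3), clone 2 (n = 2) and wild type (n = 3). JAG2 and NRARP stand between 16.2 and 20.4, the receptors between 8.65 and 10.0, and the other genes at 4.34 or less.

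The single-end pair, with 1 library per genotype and no test, gave values on the CPM scale of total counts, with intervals that cover counting error only. JAG2 had 108 CPM in the knockout and 120 CPM in wild type, a ratio of 0.898 (95% exact interval 0.863 to 0.935). NRARP had 29.9 CPM in the knockout and 32.9 CPM in wild type (ratio 0.907, interval 0.840 to 0.979). Both were lower in the knockout library. HES1 had 7.56 CPM in the knockout and 7.54 CPM in wild type (ratio 1.00, interval 0.856 to 1.17), and HEY1 had 4.43 and 4.64 CPM in the knockout and in wild type (ratio 0.955, interval 0.778 to 1.17). The largest differences were in ligands that did not pass the test in the paired-end set: DLL1 had 7.59 CPM in the knockout and 5.94 CPM in wild type (ratio 1.28, interval 1.08 to 1.51), and JAG1 had 24.9 CPM in the knockout and 29.6 CPM in wild type (ratio 0.843, interval 0.776 to 0.915). NOTCH1 had 117 CPM in the knockout and 105 CPM in wild type (ratio 1.12, interval 1.07 to 1.16), NOTCH2 had 192 and 185 CPM (ratio 1.03), NOTCH3 had 93.4 and 89.4 CPM (ratio 1.04), and DLL3 had 5.91 and 6.59 CPM (ratio 0.897), knockout before wild type. In all, 5 of the 10 genes were higher in the knockout library, and these differences have no replicate check.

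Of 71 other genes of the pathway listed by role, 68 were in the table and 61 were tested. In the clone mean against wild type, 7 rose, 4 fell and 50 did not pass (edgeR, adjusted over all features), with a median log2 fold change of 0.05, beside 18.0% of all features called. The called genes were spread over all 6 role groups. In clone 1, 7 were higher and 4 lower, where 16.0% of all features were called. In clone 2, 5 were higher and 4 lower, where 10.8% of all features were called.

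Among other ligands and receptors, 1 of 5 tested genes rose in the clone mean without GC correction. DLK1, a Delta-like protein without the part that binds Notch in canonical ligands and an imprinted gene, had 0.997, 1.17 and 1.33 CPM in clone 1, 2.70 and 2.49 CPM in clone 2, against 1.02, 0.828 and 0.752 CPM in wild type. The rise was in clone 2, above all other libraries, while clone 1 overlapped wild type. Its log2 fold change was 1.00 in the mean of the clones (SE 0.182, edgeR adjusted p = 0.00201), on 29 to 117 counts a library. With GC correction DLK2 was called lower in clone 1 (-0.37, edgeR adjusted p = 0.00715) and in the clone mean (-0.26, 0.0263), but not in clone 2 (-0.14, 0.371). The receptor NOTCH4 had 0.28 in clone 1 (edgeR adjusted p = 0.522) and 0.88 in clone 2 (0.0659), without GC correction. The clone 2 value of NOTCH4 was called with no filter on low counts and with the library number term. Among the 9 genes of receptor cleavage, FURIN rose and APH1B fell. FURIN, the protease that cuts the receptor during its maturation, had 58.5, 60.8 and 64.1 CPM in clone 1, 59.1 and 54.7 CPM in clone 2, against 44.5, 49.1 and 50.6 CPM in wild type (log2 fold change 0.30, SE 0.0576, edgeR adjusted p = 0.00321). With GC correction the FURIN value was 0.16 in the clone mean (edgeR adjusted p = 0.0291) and 0.13 in clone 2 (adjusted p = 0.195), where the uncorrected value was 0.24 (adjusted p = 0.0418) and the call was lost in 10 of 19 alternatives. APH1B, a subunit of some gamma-secretase complexes, had 18.6, 17.6 and 16.3 CPM in clone 1, 21.7 and 18.9 CPM in clone 2, against 33.0, 31.1 and 32.2 CPM in wild type. It fell by 0.77 on the log2 scale (SE 0.0647, edgeR adjusted p = 3.09e-06), with all knockout libraries below all wild type libraries, while the subunits NCSTN, APH1A and PSENEN had log2 fold changes between 0.05 and 0.13 that did not pass.

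Of the 5 genes that add sugars to the receptor, LFNG rose. LFNG is a Fringe glycosyltransferase that alters which ligands a receptor answers to, and it had 4.29, 3.95 and 4.15 CPM in clone 1, 4.26 and 3.89 CPM in clone 2, against 2.99, 2.60 and 3.54 CPM in wild type. All knockout libraries lay above wild type (log2 fold change 0.42, SE 0.124, edgeR adjusted p = 0.0310), but with GC correction the value was 0.29 and the call was lost (edgeR adjusted p = 0.0910). It was also lost without wild type replicate 1 (0.40, edgeR adjusted p = 0.126), wild type replicate 2 (0.32, 0.172) or clone 2 replicate 1 (0.39, 0.0967), and in DESeq2's test (0.42, adjusted p = 0.0565).

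Among 12 tested trafficking and ubiquitin ligase genes, 2 rose and 2 fell. MIB1, the ligase that lets ligands be internalised and so pull on the receptor, had 77.0, 91.4 and 85.8 CPM in clone 1, 79.5 and 89.1 CPM in clone 2, against 124, 116 and 122 CPM in wild type. It fell by 0.52 on the log2 scale (SE 0.0605, edgeR adjusted p = 6.33e-05), and every knockout library lay below wild type. FBXW7, which marks the intracellular receptor part for destruction, had 23.3, 25.8 and 25.5 CPM in clone 1, 23.6 and 24.7 CPM in clone 2, against 29.3, 31.6 and 29.3 CPM in wild type, and it fell by 0.29 (SE 0.0580, edgeR adjusted p = 0.00369). DTX1, a Deltex ligase that binds the receptor and in lymphocytes is itself a Notch target, had 1.93, 1.99 and 2.22 CPM in clone 1, 3.07 and 2.04 CPM in clone 2, against 0.689, 1.14 and 1.04 CPM in wild type. Its log2 fold change was 1.26 (SE 0.207, edgeR adjusted p = 0.000984), on 29 to 124 counts a library. NEURL1B, a Neuralized ligase for ligands, had 6.25, 7.40 and 8.19 CPM in clone 1, 5.35 and 3.78 CPM in clone 2, against 3.28, 3.77 and 3.90 CPM in wild type. Clone 1 lay above wild type and clone 2 overlapped it (log2 fold change 0.66, SE 0.139, edgeR adjusted p = 0.00523).

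Among 21 tested genes of the nuclear complex, 1 rose, 1 fell and 19 did not pass. MAML2, a Mastermind coactivator, had 11.2, 13.9 and 15.2 CPM in clone 1, 18.6 and 22.5 CPM in clone 2, against 11.3, 11.9 and 12.1 CPM in wild type, so the higher values were those of clone 2 (log2 fold change 0.50 in the mean of the clones, SE 0.100, edgeR adjusted p = 0.00375). L3MBTL3, which joins RBPJ in repressing targets, had 14.8, 16.4 and 14.6 CPM in clone 1, 16.4 and 14.2 CPM in clone 2, against 19.6, 18.6 and 20.3 CPM in wild type, and it fell by 0.35 (SE 0.0728, edgeR adjusted p = 0.00474). RBPJ itself had a log2 fold change of -0.10 (edgeR adjusted p = 0.205).

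Of 9 other tested targets, only CCND1 was called in the clone mean. CCND1, cyclin D1, drives entry into the cell cycle and answers to many pathways besides Notch. It had 4.35, 4.39 and 4.69 CPM in clone 1, 13.3 and 11.9 CPM in clone 2, against 2.99, 2.17 and 2.89 CPM in wild type. All knockout libraries lay above wild type and clone 2 far above clone 1, with a log2 fold change of 1.48 in the mean of the clones (SE 0.120, edgeR adjusted p = 2.31e-06). The HES and HEY family members HES2, HES4, HES5, HES6, HES7 and HEYL had log2 fold changes of the clone mean between -0.27 and 0.19, and MYC had -0.06 (edgeR adjusted p = 0.494), none of which passed. HEYL, a relative of HEY1, was called higher in clone 1 (log2 fold change 0.42, edgeR adjusted p = 0.0432), with a clone 2 value of -0.04 (adjusted p = 0.923), and with GC correction the clone 1 value was 0.27 (adjusted p = 0.173). With GC correction HES6 was called lower, at -0.38 in clone 1 (edgeR adjusted p = 0.000730), -0.29 in clone 2 (0.0117) and -0.34 in the clone mean (0.000634), and MYC at -0.14 in the clone mean (0.0492). In the single-end pair, CCND1 had 10.7 CPM in the knockout and 4.44 CPM in wild type, APH1B had 18.4 CPM in the knockout and 29.5 CPM in wild type, and MIB1 had 79.4 CPM in the knockout and 92.4 CPM in wild type.

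**Figure D5:**
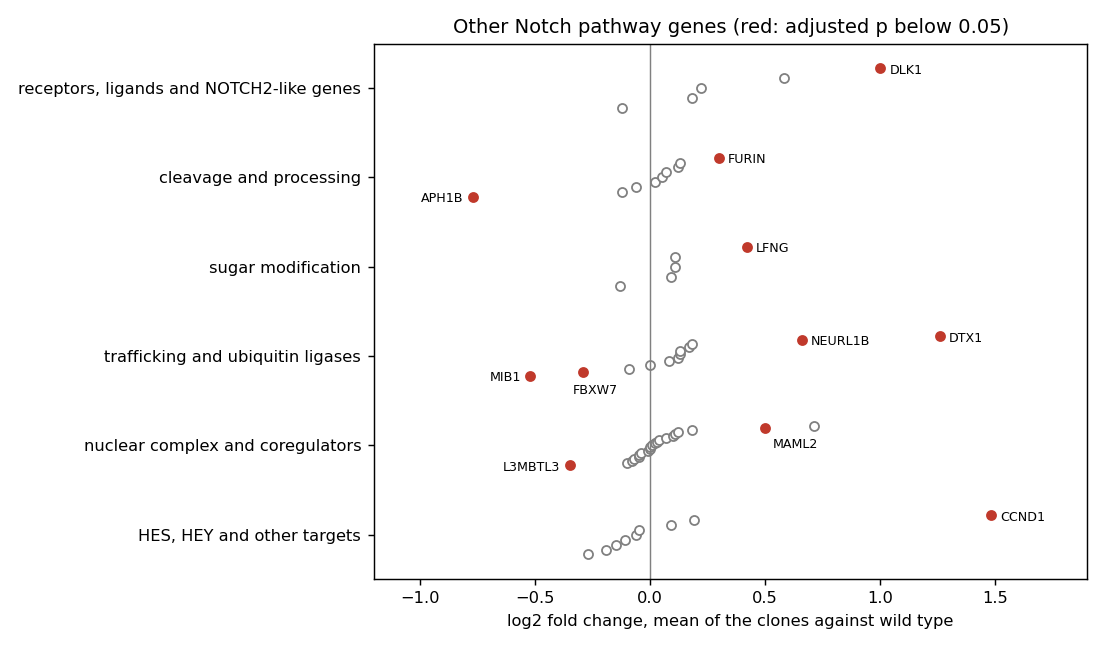
Log2 fold change in the clone mean against wild type (horizontal axis) of the 61 tested Notch pathway genes outside the list of 10, by role group, where red points have an edgeR adjusted p below 0.05. The 11 called genes run from APH1B at -0.77 to CCND1 at 1.48, and the 50 others are open points, most of them near 0.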

How the data were processed

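A stranded mRNA kit was used on 65 ng of total RNA for each library, per the labels' protocols. The deposited tables hold raw counts per gene and repeat subfamily, with no normalization by the authors, as the values show. The submitters' processing notes name STAR 2.5.2a and the build hg38 (GRCh38), and the sources used here give neither the counter's strand setting nor its annotation release. A gene name table gave symbols for 56948 of 58051 gene rows, and lengths, GC and coordinates came from GENCODE 29 (57447 rows).

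After filterByExpr, 20747 features in 8 paired-end libraries were scaled with TMM and fitted with edgeR's quasi-likelihood test (robust, 1 mean per group), with Benjamini-Hochberg adjustment over all features and a call at adjusted p below 0.05. GC correction used a lowess (span 0.2) per library on the 19549 features with a GC value. The tools were edgeR 4.0.16, DESeq2 1.42.0 and limma 3.58.1 in R 4.3.3, and the code was tested on simulated counts. No library was a copy of another. The members and the pathway and marker lists were chosen with earlier results of these data known. All 10 members were named, and RBM4, and per role group of the pathway list up to 2 called genes in each direction with the smallest p; other pathway genes given with values were chosen after their values were seen. Single-end intervals are exact binomial and cover counting error only. Leave-one-out, scaling, filter, block, GC, length and library-number alternatives were tried.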

Additional observations from a re-analysis of the deposited data

Results flagged for a closer look

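Of the 61 tested pathway genes outside the list of 10, 3 differed between the knockout clones in edgeR's test of clone 2 against clone 1. In that comparison 2.09% of all features were called, and none of the 10 receptors, ligands and targets was. DLK1 was higher in clone 2, with 2.70 and 2.49 CPM in clone 2 and 0.997 to 1.33 CPM in clone 1, a log2 fold change of 1.14 (edgeR adjusted p = 0.00597). MAML2 was higher in clone 2, with 18.6 and 22.5 CPM in clone 2 and 11.2 to 15.2 CPM in clone 1, a log2 fold change of 0.61 (edgeR adjusted p = 0.0138). The DLK1 call was lost without clone 2 replicate 1 (1.09, edgeR adjusted p = 0.0588) and within library numbers 1 to 5 (1.42, 0.0735) or 11 to 13 (0.99, 0.0696), and the MAML2 call without clone 2 replicate 2 (0.47, 0.212). CCND1 was higher in clone 2, with 13.3 and 11.9 CPM in clone 2 and 4.35 to 4.69 CPM in clone 1, a log2 fold change of 1.49 (edgeR adjusted p = 1.05e-05). With both clones taken as 1 group against wild type, the calls of these genes were lost, while the log2 fold changes were 1.00 for DLK1 (edgeR adjusted p = 0.0799), 0.47 for MAML2 (0.162) and 1.52 for CCND1 (0.0976), beside 1.00, 0.50 and 1.48 with a mean for each clone. NEURL1B had a log2 fold change of -0.68 in clone 2 against clone 1, which missed the threshold (edgeR adjusted p = 0.0508), and it was called in 10 of 20 alternatives, among them GC correction (-0.65, 0.0164). Each clone is 1 clonal line, so a difference between the clones and one between clonal lines in general cannot be told apart.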

How the results depend on the processing

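The count of the 10 Notch genes called depended on the setting, and every call was of a lower value. The share of all features called, in brackets, moved too. In clone 1 against wild type it was 1 (16.0%), but 4 with GC correction (15.3%), with GC correction and the replicate block (17.0%), or with GC and length correction (17.1%), 0 with the library number as a term (18.9%), and 0 to 1 without 1 library. In clone 2 it was 0 (10.8%), but 3 with those GC settings (11.9%, 12.7% and 13.4%), 1, HES1, with no filter on low counts (7.92%), with at least 50 counts in 3 libraries (13.3%), or with the replicate block (12.2%), and 0 to 1 without 1 library. In the mean of the clones it was 1 (18.0%), but 3 with GC correction (17.5%), 5 with GC correction and the replicate block (19.1%), 4 with GC and length correction (19.4%), 2, NOTCH2 and JAG2, in library numbers 1 to 5 only (23.1%), 0 with the library number term (19.7%) and 0 to 1 without 1 library. In clone 2 against clone 1 it was 0 (2.09%), but 1 with GC correction and the replicate block (3.16%), and 1, HES1, with the library number term (2.94%). NOTCH1 in the mean of the clones turned to -0.14 (edgeR adjusted p = 0.0322) with GC correction and the replicate block, and to -0.12 (0.0361) with GC and length correction. The cause was not tested. The settings restricted to library numbers 1 to 5 or 11 to 13 and the length correction were chosen after seeing the data. Without 1 wild type library, 7.79% to 11.2% of all features were called in clone 1 and 6.16% to 7.52% in clone 2. In the mean of the clones the share was then 8.97% to 11.8%. Without 1 clone 1 library these shares were 12.8% to 15.6%, 10.6% to 13.3% and 17.6% to 20.6%.

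The other pathway genes called were 11 in clone 1 (7 to 11 without 1 library; 7 without wild type replicate 2), 9 in clone 2 (7 to 9), 3 between the clones (2 to 4) and 11 in the mean of the clones (10 to 13), the last with 20 in library numbers 1 to 5 only (23.1% of all features), 14 with GC correction (17.5%) and 8 with both clones as 1 group (16.1%). Of 780 values of the 10 genes under alternatives, 735 stayed on their side of the threshold, 10 lost and 33 gained a call and 2 turned round; among those never called, 62 changed sign. In the single-end pair, 3 and not 5 genes were higher in the knockout with TMM scaling. With the longest transcript as length, 6 of 10 ranks of the level order in wild type stayed. DLL1 was then the least abundant (2.29 CPM per kilobase, beside 2.33 for HEY1). NOTCH2, at 13.9, stood apart from NOTCH1 (10.8) and NOTCH3 (9.85). Replicate numbers did not pair the samples: same-numbered libraries of a clone and wild type correlated between -0.392 and 0.137 in their deviations from the group means. The same-numbered pairs between the clones correlated at 0.512 and 0.499, and each lies within 1 range of library numbers; with the block, clone 2 against clone 1 still gave 0 of the 10 genes, and DLK1, MAML2 and CCND1 of the others. The replicate block changed no call of the 10 genes without GC correction except HES1 in clone 2 (log2 fold change -0.42, edgeR adjusted p = 0.0259). Depth limits DLL1, DLL3, HES1 and HEY1, which had 164 to 484 counts a library.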
